A study of Rattus norvegicus with 3 samples.

Results

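A2m, Cp, Ttr and Hp encode secreted plasma and transport proteins, and their probe sets were read on 3 rat expression arrays. A probe set was taken where the platform annotation gave it to 1 of these genes alone. That gave 12 probe sets for 4 genes, of 4736 genes named in this way: 6 for A2m, 3 for Cp, 2 for Ttr and 1 for Hp. Tf, the gene of transferrin, was also on the list but had no probe set of its own, since the 3 annotated to it name Srprb as well, and it was left out. A further probe set of Ttr is shared with metallothionein genes and was not read either.

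The labels call the arrays a time course and give 0.0 h, 0.1 h and 1.0 h, with 1 array of total RNA each. What the times are counted from is not stated, and whether 0.1 h is a true interval could not be checked, so the labels are used here as names of arrays. All samples share pineal gland and adrenal medulla as the stated source, and the labels name no treatment, strain, age or number of animals. With 1 array per label no difference below has a replicate check and no p-value can be given, and with so few arrays the precision is limited. Intensities are linear and were scaled so that the arrays share a median over probe sets brighter than a floor of 262.9. Of the 8740 probe sets other than controls, 58.8%, 60.5% and 60.9% were above the floor on the 0.0 h, 0.1 h and 1.0 h arrays.

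Most of these proteins are known from the liver, which releases them into blood, but several are also made inside the nervous system, in choroid plexus and glia. Alpha-2-macroglobulin, from A2m, traps proteases, and in the rat it is a classic acute phase protein that the liver makes under interleukin 6. Ceruloplasmin, from Cp, carries copper and oxidises iron so that transferrin can bind it. Transthyretin, from Ttr, carries thyroxine and, through retinol-binding protein, retinol. Haptoglobin, from Hp, binds free haemoglobin.

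The stretch before an annotated start is shown for Ttr and Cp. They are the members with 0.1 h highest and 1.0 h lowest on at least 1 bright probe set. Both are the 250 bases upstream of a start annotated in the build GRCr8, on the plus strand. Both stretches lie inside the gene spans of the RefSeq table, which begin at 12216684 for Ttr and 104368336 for Cp. The start used is thus not the first base of either gene. None is shown for A2m and Hp. Ttr is at chr18:12218508-12218757 and Cp at chr2:104368420-104368669. Capitals mark matches, on either strand, to 6 motifs: TGTTTAC and TGTTGAC for the FOXA factors of liver, TAATCC and TAATCT for the Crx and Otx factors of pineal gland and choroid plexus, TTNNGNAA for C/EBP and TTCNNNGAA for STAT factors.
Ttr: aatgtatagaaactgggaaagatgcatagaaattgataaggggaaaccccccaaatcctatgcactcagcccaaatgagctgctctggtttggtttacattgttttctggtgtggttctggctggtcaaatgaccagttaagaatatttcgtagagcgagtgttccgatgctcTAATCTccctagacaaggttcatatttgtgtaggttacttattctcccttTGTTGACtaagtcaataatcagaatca
Cp: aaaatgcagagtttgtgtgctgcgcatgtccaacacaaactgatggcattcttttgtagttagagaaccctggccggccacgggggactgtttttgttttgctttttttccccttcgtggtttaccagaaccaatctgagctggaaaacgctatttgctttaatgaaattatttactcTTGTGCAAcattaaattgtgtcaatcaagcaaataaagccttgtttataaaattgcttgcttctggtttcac
The Ttr stretch held TAATCT beginning at position -77 and TGTTGAC at -27, counted back from the start, and no match to the other motifs. The Cp stretch held 1 match, to TTNNGNAA, at -72. Among 33469 upstream stretches of the same length, 7.72% held TAATCT, 2.15% TGTTGAC and 37.2% TTNNGNAA. These are matches of letters, described as such.

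Of the 12 probe sets, 9 were above the floor on all 3 arrays, 2 on the 0.1 h array alone, and 1 on none. Every probe set is drawn by array in the plot of intensities. The lines of A2m spread over the widest part of the scale. The brightest lines of A2m and Ttr are nearly flat, while the brightest line of Cp spans 1.64-fold and the dimmer line of Ttr 1.69-fold.

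**Figure D1:**
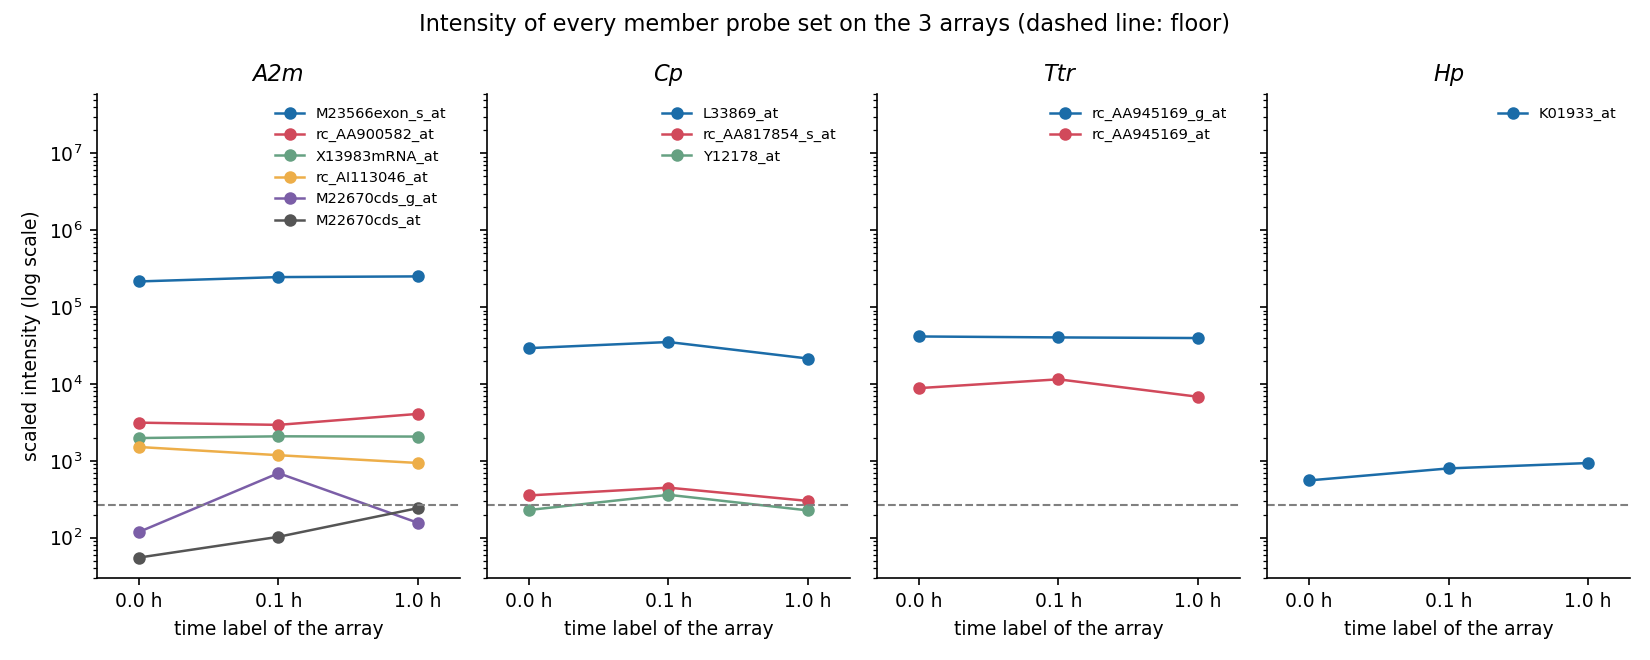
Scaled intensity on a log axis of every probe set of A2m, Cp, Ttr and Hp on the 0.0 h, 0.1 h and 1.0 h arrays, 1 point per array, with the floor of 262.9 as a dashed line. M23566exon_s_at of A2m lies between 215340 and 250413, whereas M22670cds_at of the same gene stays below the floor.

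A2m had the widest spread of the members. Its probe set M23566exon_s_at read 215340 at 0.0 h, 245311 at 0.1 h and 250413 at 1.0 h, as scaled intensity. It ranked 3, 3 and 2 in brightness among the 8740 probe sets, beside those of the ribosomal protein gene Rpl3 and the lysosomal prosaposin gene Psap. The 3 arrays were within 1.16-fold of each other on this probe set.

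The next A2m probe set, rc_AA900582_at, had 3134, 2932 and 4072, with the 1.0 h array highest. X13983mRNA_at was nearly level at 1975, 2080 and 2065. The fourth, rc_AI113046_at, had 1511, 1182 and 936.2 and so ran opposite to rc_AA900582_at, with the 1.0 h array lowest. These 3 readings of 1 gene gave a level, a higher and a lower 1.0 h array relative to 0.0 h, at log2 differences of 0.06, 0.38 and -0.69.

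The last pair of A2m probe sets comes from 1 coding sequence entry and was dim. M22670cds_g_at had 118.7 and 156.0 at 0.0 h and 1.0 h, below the floor, and 690.1 at 0.1 h. Against the floor its 0.1 h level was at least 2.62-fold higher than either other array. Its partner M22670cds_at did not share that peak. It had 55.1, 102.5 and 242.2, below the floor on all 3 arrays, so no fold is given.

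Cp was read by a bright probe set and by dim ones. L33869_at had 29212, 35079 and 21405 at 0.0 h, 0.1 h and 1.0 h. The dim rc_AA817854_s_at had 354.2, 447.2 and 300.3, the same order of arrays. Y12178_at had 229.0 and 226.1 at 0.0 h and 1.0 h, below the floor, and 360.9 at 0.1 h, at least 1.37-fold higher than on either other array. The 2 measured Cp probe sets were therefore brightest on the 0.1 h array and dimmest on the 1.0 h array, and the third was above the floor at 0.1 h alone.

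The log2 difference of Cp between 1.0 h and 0.1 h was -0.71 on L33869_at and -0.57 on rc_AA817854_s_at, 1.64-fold and 1.49-fold lower. Against 0.0 h, the 1.0 h array stood at -0.45 and -0.24. These 4 differences kept their sign under every alternative scaling and floor that could be computed. Between 0.1 h and 0.0 h the values were 0.26 and 0.34. With the spike-in controls made equal, they were -0.01 and 0.06. That scaling shifts every log2 difference by -0.28 between 0.1 h and 0.0 h, 0.20 between 1.0 h and 0.0 h and 0.47 between 1.0 h and 0.1 h.

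Ttr was bright on both of its probe sets, which come from the same sequence tag. rc_AA945169_g_at had 41424, 40260 and 39514 at 0.0 h, 0.1 h and 1.0 h. This range of 0.07 on the log2 scale was among the smallest found: of the 4577 probe sets measured throughout, 0.939% had a smaller one, and the median range was 0.60. The order of the 0.1 h and 1.0 h arrays on this probe set depended on the scaling. For 1.0 h against 0.1 h it read -0.03 here and 0.45 with the spike-in controls made equal. Its partner rc_AA945169_at had 8817, 11478 and 6805, so the arrays were up to 1.69-fold apart, with 0.1 h highest and 1.0 h lowest.

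The ratio of the _g_at to the _at intensity of Ttr was 4.70, 3.51 and 5.81 on the 3 arrays. Over 430 such pairs above the floor the median ratio was 2.48, with 10th and 90th percentiles of 0.543 and 14.2. For 1.0 h against 0.1 h the pair read log2 differences of -0.03 and -0.75. The size of the Ttr difference thus depended on which probe set was read.

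Hp had 1 probe set, K01933_at, with 555.2, 795.5 and 934.3 at 0.0 h, 0.1 h and 1.0 h. It was 1.68-fold higher at 1.0 h than at 0.0 h. In that comparison the brightest probe set of A2m was 1.16-fold higher, and those of Cp and Ttr were 1.36-fold and 1.05-fold lower. The dimmer rc_AI113046_at of A2m was 1.61-fold lower. The log2 differences of Hp were 0.52 between 0.1 h and 0.0 h, 0.75 between 1.0 h and 0.0 h and 0.23 between 1.0 h and 0.1 h. They were positive under every alternative that could be computed. With the floor at the 60th percentile, Hp was too dim to be read at 0.0 h.

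In no comparison was any of the 9 measured member probe sets at least 2-fold apart. Over all 4744 probe sets measured at 0.1 h and 0.0 h, 6.24% were higher by 2-fold or more at 0.1 h and 4.34% were lower by as much. For 1.0 h against 0.0 h these shares were 2.89% and 2.58% of 4775, and for 1.0 h against 0.1 h 3.89% and 5.5% of 4834. At such shares a count of 0 among 9 is close to the background and says nothing particular about these genes.

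The member differences ranged from -0.35 to 0.52 between 0.1 h and 0.0 h, with a median of 0.19 against 0.02 over all probe sets. For 1.0 h against 0.0 h they ranged from -0.69 to 0.75, with a median of -0.07 against 0.02. Member values for 1.0 h against 0.1 h ranged from -0.75 to 0.47, with a median of -0.03 against -0.01. The comparisons share arrays and are not independent. The SD of the log2 differences over all probe sets, taken from the median absolute deviation, was 0.53, 0.44 and 0.56 in the same order, so most member values lay within 1 such SD. Those outside were Hp at 0.75 and the A2m probe set rc_AI113046_at at -0.69 and Cp L33869_at at -0.45 between 1.0 h and 0.0 h, and Cp L33869_at at -0.71, Cp rc_AA817854_s_at at -0.57 and Ttr rc_AA945169_at at -0.75 between 1.0 h and 0.1 h.

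**Figure D2:**
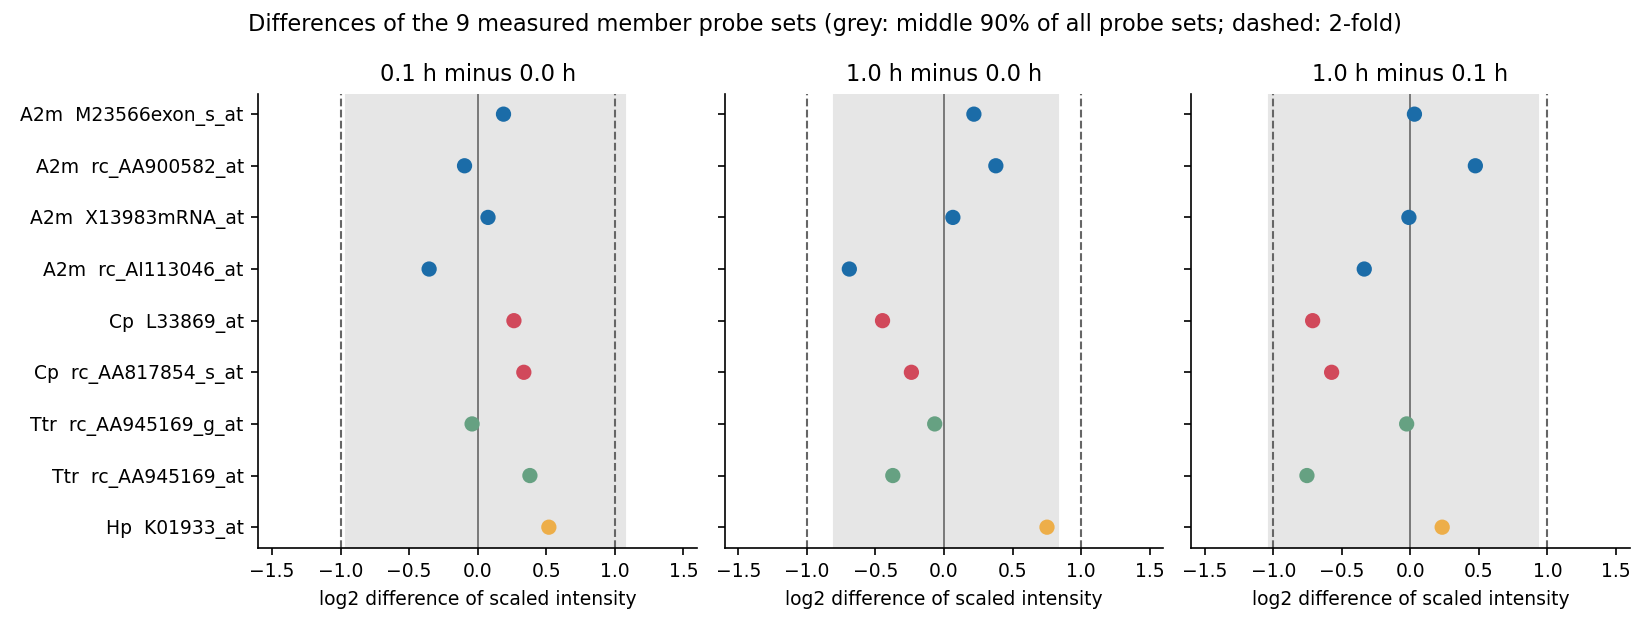
Log2 differences of scaled intensity for the 9 member probe sets measured on every array, 1 panel per comparison, with the middle 90% of all probe sets in grey and 2-fold as dashed lines. Every member lies inside the grey band, and the 4 A2m probe sets fall on both sides of 0.

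Probe sets of 1 gene can differ in how well they bind, so their levels cannot be compared as amounts of RNA. Their spread shows how far a level depends on the probe set. What sets the spread was not tested. Among probe sets measured on every array, the brightest and dimmest of A2m were 199-fold apart. This was the second widest of 699 genes with at least 2 such probe sets. A range widens with the number of probe sets, and A2m had 4. Counting dim probe sets too, the median was 6.12-fold for genes with at least 2 and 36.1-fold with at least 5. The Cp probe sets were 77.3-fold apart, rank 13 of 699. The Ttr pair was 4.57-fold apart, against a median of 3.64-fold and a 90th percentile of 23.9-fold over the 699 genes.

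The probe sets of a gene also disagreed in direction. A2m had 3 measured probe sets higher and 1 lower at 1.0 h than at 0.0 h, with differences spread over 1.07, and 2 higher and 2 lower in each of the other comparisons. Opposite signs occurred in 45.5% of 725 genes with at least 2 measured probe sets between 1.0 h and 0.0 h. The median spread of their differences was 0.40. Opposite signs and a wide spread come more easily with 4 probe sets, as for A2m, than with 2. In that comparison Cp, spread over 0.21, and Ttr, over 0.31, were below the median. For 1.0 h against 0.1 h the median spread was 0.49, with Cp below it at 0.14 and Ttr above it at 0.73. For 0.1 h against 0.0 h the Ttr probe sets had opposite signs and a spread of 0.42, the same as the median, while Cp was at 0.07.

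**Figure D3:**
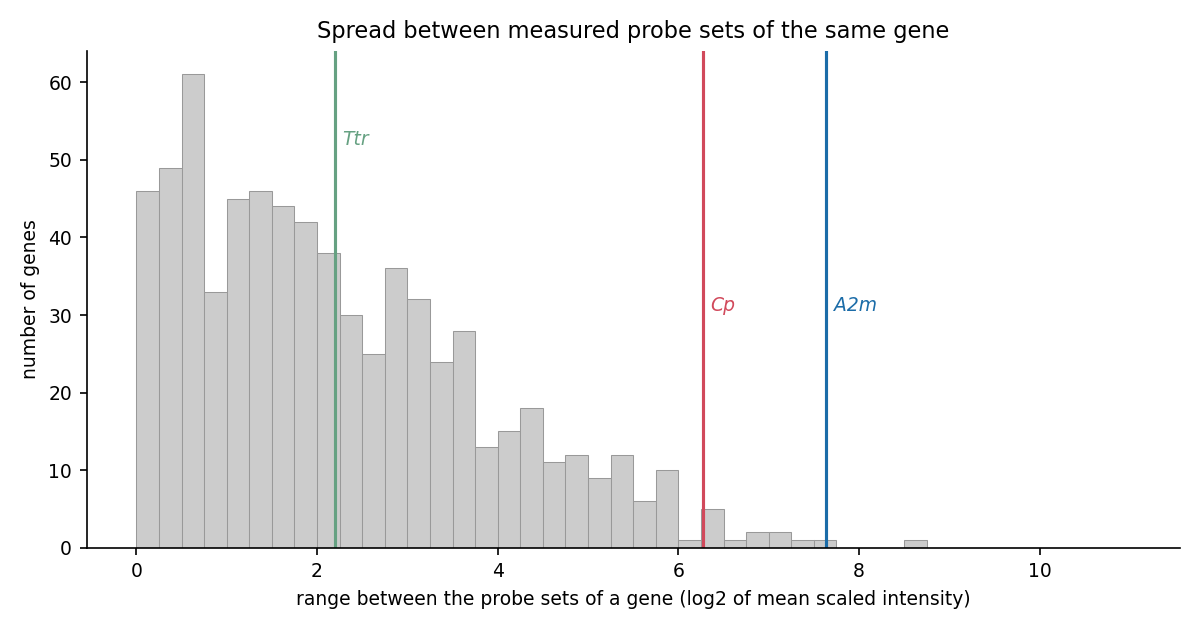
Number of genes by the range between their measured probe sets, as the log2 of mean scaled intensity over the 3 arrays, for 699 genes with at least 2 probe sets above the floor. The lines mark Ttr at 2.19, near the middle of the distribution, and Cp at 6.27 and A2m at 7.64 in its upper tail.

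A list of 40 other secreted proteins of plasma gave a setting for the members. Of 35 named genes, 13 were above the floor on all 3 arrays and 11 on none. None of those measured was at least 2-fold apart in any comparison. With spike-in scaling Clu at 1.03 and Lcn2 at 1.12 were so between 1.0 h and 0.0 h. That scaling raised the number of all probe sets at least 2-fold higher there from 138 to 261. Under the main scaling, 2.58% to 6.24% of all measured probe sets were 2-fold apart in each direction. At such shares, counts of 0 in this list are close to the background. There were 14, 14 and 17 measured, with median log2 differences of 0.19, 0.12 and 0.08 for 0.1 h against 0.0 h, 1.0 h against 0.0 h and 1.0 h against 0.1 h. The brightest were Apoe, which carries lipids between cells, at 198922, 227687 and 206986, and Clu, the extracellular chaperone clusterin, at 35550, 63060 and 63509. Clu was thus lowest at 0.0 h, with the other arrays level with each other under this scaling. Several other genes of the list were lowest at 0.0 h too, among them Lcn2 at 1158, 2081 and 2199.

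**Figure D4:**
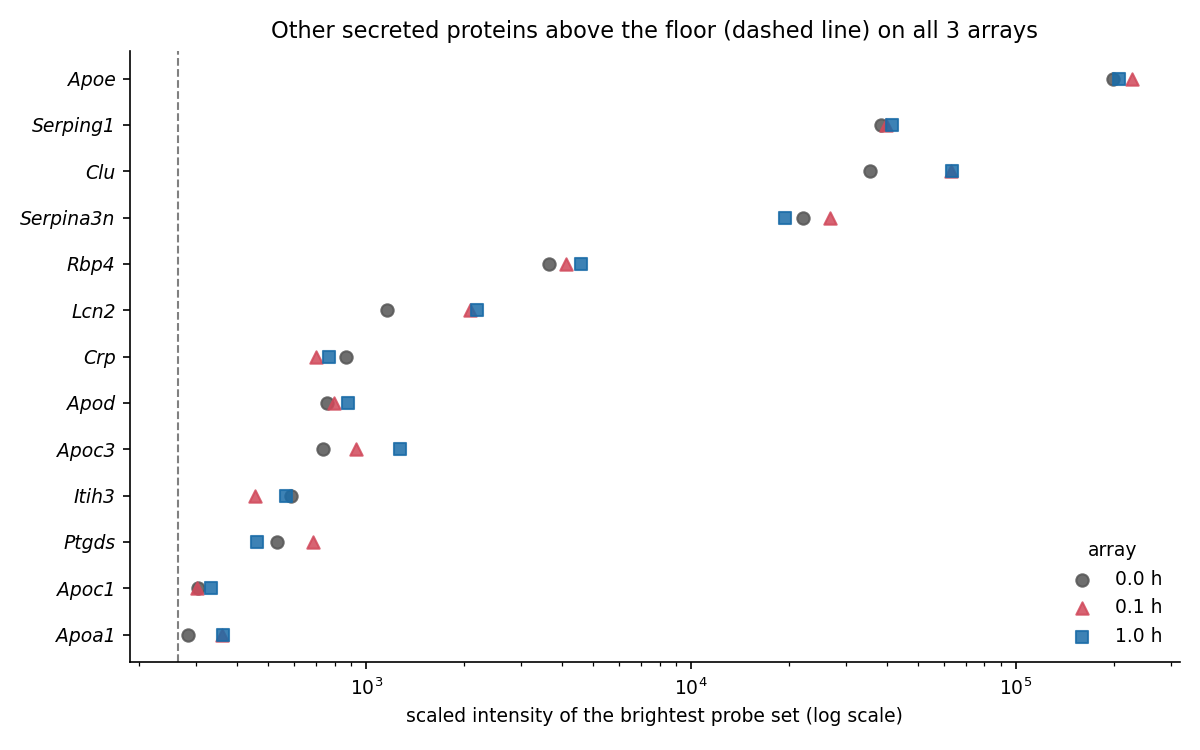
Scaled intensity on a log axis of the brightest probe set of each of the 13 other plasma protein genes above the floor (dashed line) on all 3 arrays, 1 symbol per array. The arrays lie close together for most genes, and Clu, Lcn2 and several other genes are lowest at 0.0 h.

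Markers of the liver cells that make most plasma proteins were largely dim. Of 15 hepatocyte markers, 4 were above the floor on all 3 arrays and 6 on none: Fgb and Fgg of fibrinogen, F2 of prothrombin, the metabolic enzyme genes Tat and Pck1, and Cyp2c11. The brightest were Apoc3 at 737.6, 929.4 and 1270 and Cyp2e1 at 714.6, 543.4 and 625.5. Alb, the albumin gene, singled out after its values were seen, was below the floor with 54.6 at 0.0 h and had 529.4 and 420.0 at 0.1 h and 1.0 h on its brightest probe set. The other 3 Alb probe sets were below the floor on all 3 arrays. The summed intensity of the marker list was 3892, 4454 and 5621.

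Choroid plexus, the best known source of Ttr in the brain, was represented by 8 named markers other than Ttr. Of these 4 were above the floor on all 3 arrays, the brightest being Enpp2 at 1548, 3321 and 1578 and Igf2 at 1354, 1579 and 1594. Aqp1, Kcnj13 and Htr2c were below it on all 3. Their summed intensity was 4743, 6603 and 5709. Without Enpp2 alone, a setting chosen after the values were seen, it was 3194, 3282 and 4132, so that the array with the highest sum depended on 1 gene. What part such cells have in the Ttr signal was not tested. The pinealocyte markers had 6 of 8 above the floor on all 3 arrays, led by Tph1 and Pdc, with Adrb1 below it on all 3 and sums of 56275, 63475 and 49917. Without Pdc these sums were 36797, 40359 and 40757, so their order too rested on 1 gene. In tissue RNA, fewer cells of a type and less RNA per cell cannot be told apart. Of 9 chromaffin markers 6 were above the floor on all 3 arrays, led by Chgb and Ddc, with sums of 94175, 95892 and 72198. Those below it on all 3 were Th, Dbh and Slc18a1, of catecholamine synthesis and storage, whereas Pnmt, the enzyme that forms adrenaline, singled out after its values were seen, had 610.5, 657.9 and 514.0.

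Astrocytes are a known source of Cp, and 6 of 8 of their markers were above the floor on all 3 arrays, led by Glul and Vim, with sums of 85918, 95400 and 91960, while Aqp4 was below it on all 3. Leukocytes can carry Hp. Their list had 7 of 11 above the floor, led by Spp1 and Lyz2, and Itgam, S100a8, S100a9 and Csf1r below it on all 3, with sums of 24240, 31722 and 15056. Without Spp1, a setting chosen after the values were seen, the sums were 5989, 8501 and 8485, so that the array with the lowest sum depended on 1 gene. Erythroid markers, which would bring haemoglobin with blood, had 4 of 5 above the floor, led by Hbb and Hbb-b1, with Epor below it and sums of 9157, 8488 and 10109. Of the remaining marker lists, 1 of 5 adrenal cortex, 4 of 8 oligodendrocyte and Schwann cell, 5 of 8 endothelial, 5 of 8 adipocyte and 9 of 10 fibroblast and smooth muscle genes were above the floor on all 3 arrays. The part of these cells in the member values was not tested.

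Of the partners of these proteins, few receptors were named on the array. In a list of 9 receptors and associated proteins 5 were named, and none of the 3 or 4 measured in a comparison was at least 2-fold apart. For so few genes this is close to the background of 2.58% to 6.24% in each direction. Lrpap1, the chaperone of the A2m receptor family, had 5141, 4845 and 3864. Its other probe sets measured between 0.1 h and 0.0 h disagreed, with log2 differences of -0.97 and 0.61 against -0.09 here. Next came the lipoprotein receptor gene Vldlr with 1263, 1050 and 1172. Tfrc, the transferrin receptor gene, singled out after its values were seen, had 198.3, 265.9 and 40.1 and was above the floor only at 0.1 h.

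Iron handling genes had 9 of 12 named members above the floor on all 3 arrays and none at least 2-fold apart. For 9 genes this too is close to the background. With spike-in scaling Hmox2 was at -1.16 between 0.1 h and 0.0 h and Aco1 at 1.19 between 1.0 h and 0.1 h. Over all probe sets that scaling raised the counts from 206 to 463 lower and from 188 to 800 higher. The iron list had median log2 differences of -0.03, -0.08 and 0.13 for 0.1 h against 0.0 h, 1.0 h against 0.0 h and 1.0 h against 0.1 h. The brightest were Hmox1, which breaks down haem, at 31621, 24991 and 28826, and the iron transporter gene Slc11a2 at 21911, 21408 and 23416.

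Among 8 named copper and metal genes 4 were measured between 0.1 h and 0.0 h. Of these 2 were at least 2-fold higher at 0.1 h, against 6.24% of all measured probe sets. Both were superoxide dismutases that use copper. Sod1, the enzyme of the cytosol, had 30519, 65148 and 45020 at 0.0 h, 0.1 h and 1.0 h, a log2 difference of 1.09 between 0.1 h and 0.0 h, and its other measured probe sets read 1.05 and 0.89. Sod3, the secreted enzyme, had 1939, 4423 and 2438, a log2 difference of 1.19, and its other probe set was below the floor. With spike-in scaling neither reached 2-fold, at 0.82 for Sod1 and 0.91 for Sod3. None of this list was 2-fold apart in the other comparisons, and its medians were 0.70, 0.41 and -0.53 for 0.1 h against 0.0 h, 1.0 h against 0.0 h and 1.0 h against 0.1 h. Made equal on the spike-in controls, the arrays gave 0.43, 0.60 and -0.06. Cp on L33869_at stood at 0.26 between 0.1 h and 0.0 h, or at -0.01 with spike-in scaling.

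Genes around thyroid hormone and retinoids, the cargo of transthyretin, had 9 measured members in each comparison. Between 0.1 h and 0.0 h 2 were at least 2-fold higher, against 6.24% of all measured probe sets, and the median was 0.67. With spike-in scaling the median was 0.40 and only Dio3 reached 2-fold, at 1.01 against 0.82 for Rara. Dio3, which inactivates thyroid hormone, had 1816, 4441 and 1987, a log2 difference of 1.29 on this probe set and 0.79 on its other one. Rara, a retinoic acid receptor gene, had 2307, 4917 and 1356, a log2 difference of 1.09, and its other 2 probe sets were below the floor.

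At 1.0 h against 0.1 h 4 of these 9 genes were at least 2-fold lower, against 5.5% of all measured probe sets. The median was -0.60, and the list was chosen with earlier results of these data known. Rara was at -1.86, Dio3 at -1.16, though at -0.07 on its other probe set, and the retinoid receptor gene Rxra at -1.11. The fourth, named after its value was seen, was the retinaldehyde dehydrogenase gene Aldh1a1 at -1.03, which was just short of 2-fold as deposited and with quantile and cyclic loess normalisation, at -0.94, -0.98 and -0.99. With spike-in scaling the median was -0.13 and Rara alone was 2-fold lower, at -1.39, while Dio3, Rxra and Aldh1a1 were at -0.69, -0.64 and -0.55. Relative to 0.0 h, at 1.0 h none was 2-fold apart and the median was -0.10, or 0.10 with spike-in scaling. Rbp4, the retinol carrier that travels with transthyretin, had 3661, 4110 and 4583 on its brightest probe set and 874.7, 1196 and 1030 on its other measured one.

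The interleukin 6 and acute phase signalling list acts upstream of A2m and Hp in liver. It had 14 measured genes between 0.1 h and 0.0 h, with a median of 0.47. Of these 2 were at least 2-fold higher, against 6.24% of all measured probe sets, and none was lower by as much. Il6 had 454.1, 934.2 and 1095 and a log2 difference of 1.04, with its other probe set below the floor, and the transcription factor gene Stat5b 449.4, 981.7 and 843.6 and one of 1.13. For 1.0 h against 0.0 h 1 of 15 was at least 2-fold higher, Il6 at 1.27, against 2.89% of all measured probe sets. The median there was 0.22. Of 17 measured at 1.0 h and 0.1 h none was 2-fold apart, and the median was 0.11. With spike-in scaling Il6 and Stat5b were at 0.76 and 0.85 between 0.1 h and 0.0 h, short of 2-fold, and the median there was 0.19. The same scaling put 3 of 15 at least 2-fold higher at 1.0 h than at 0.0 h, and 4 of 17 at 1.0 h than at 0.1 h. Over all probe sets it raised these counts from 138 to 261 and from 188 to 800. The list counts under that scaling therefore say nothing particular about these genes. Il6 was also short of 2-fold between 0.1 h and 0.0 h with quantile and cyclic loess normalisation, at 0.92 and 0.97. Hp had the same order of arrays as the measured Il6 probe set, whereas the 4 measured A2m probe sets differed in order among themselves. Over 3 arrays few orders are possible, so a shared order says little. Whether Il6 has a part in the Hp or A2m values was not tested. With all probe sets of a gene averaged, the median between 0.1 h and 0.0 h was 0.00.

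Likeness over 3 arrays was a weak criterion. The genes closest to each member profile, by the largest log2 deviation after centring, were Cntn2 and Tmem259 for M23566exon_s_at, Ptgr1 and Dnmt1 for Cp L33869_at, Lin7a and Tmem255b for Ttr rc_AA945169_g_at and Pygb and Notch1 for Hp, all within 0.02. Between 62 and 263 probe sets of other genes lay within 0.1 of a member, of 3773 to 3776 compared.

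RNA quality limits these values. The beta-actin control was 10.4, 17.8 and 44.4 times brighter at its 3' than at its 5' end on the 0.0 h, 0.1 h and 1.0 h arrays. For the GAPDH control this was 15.3, 18.6 and 14.1 times. The 1.0 h array thus had the highest actin ratio and the lowest GAPDH ratio. It was lowest for the measured probe sets of Cp and Ttr and for rc_AI113046_at of A2m. For Hp and for M23566exon_s_at and rc_AA900582_at of A2m it was highest. The part of RNA quality in these values was not tested.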

How the data were processed

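The deposited value table holds 1 linear intensity per probe set and array. How the authors summarised probes and corrected background is not given in the sources used here. Without the highest and lowest 2% of values, the deposited mean was 2499.9 on each array, so the deposited arrays already shared a common mean. Probe sets were named through the platform annotation, and of 7006 with 1 symbol 6985 matched a RefSeq gene table of GRCr8 by gene ID. Intensities were taken to log2. The floor lay at the 40th percentile over the median-scaled arrays. Arrays were then shifted by 0.01, 0.04 and -0.05 (0.0 h, 0.1 h, 1.0 h) so that probe sets brighter than the floor throughout had equal medians. Differences were taken only where both arrays were above it, and 2-fold was the threshold. A listed gene was read from its brightest probe set. No test was possible. Tried as alternatives were no further scaling, quantile and cyclic loess normalisation (limma 3.58.1, R 4.3.3), spike-in scaling on 9 control probe sets, floors at the 20th and 60th percentile, the mean of a gene's probe sets and its second-brightest, and, added after seeing the data, marker sums without the gene of widest range. Scaling and calling were run on simulated data with large changes in bright probe sets and less noise than the real arrays. This checks the code and does not show how well real differences are called. From each list the text names genes at least 2-fold apart, at most 3 per direction, or the 2 brightest, and from marker lists the 2 brightest and those below the floor on all 3 arrays. The members and lists were chosen with earlier results of these data known.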

Additional observations from a re-analysis of the deposited data

How the results depend on the processing

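For the 9 measured member probe sets, differences were recomputed under 8 alternatives, giving 172 values for 27 differences, and none reached 2-fold. The sign was kept throughout for 17 differences. In 19 values it was another or the value was 0, of which 7 came from spike-in scaling, and the largest difference so affected was -0.34. For A2m M23566exon_s_at the range between 0.1 h and 0.0 h was -0.10 to 0.54, and for Ttr rc_AA945169_g_at between 1.0 h and 0.1 h -0.39 to 0.45. With the floor at the 20th percentile A2m M22670cds_g_at could be read on all 3 arrays, at 2.48 between 0.1 h and 0.0 h and -2.15 between 1.0 h and 0.1 h. Its partner M22670cds_at could then be read at 1.0 h and 0.1 h, and its difference of 1.23 had the opposite direction. The background counts moved by more than 1.5 times under 3 alternatives. With the floor at the 20th percentile, probe sets at least 2-fold higher and lower numbered 534 and 482 for 0.1 h against 0.0 h, 354 and 367 for 1.0 h against 0.0 h and 437 and 530 for 1.0 h against 0.1 h. With the floor at the 60th percentile, which tests fewer probe sets, these were 172 and 131, 64 and 64, and 103 and 167. With spike-in scaling they were 134 and 463, 261 and 63, and 800 and 60, since it shifts every difference by -0.28, 0.20 and 0.47. The main counts were 296 and 206, 138 and 123, and 188 and 266. No paired analysis was possible because each label has 1 array. The number of arrays and the dimness of probe sets near the floor limit what can be read.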
